A study of Mus musculus with 2 samples.

Results

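Cycling medullary thymic epithelial cells (mTECs) are the members of the thymic medullary epithelium that carried mRNAs of S phase and mitosis when the tissue was taken. They were chosen in 2 single-cell RNA sequencing libraries of mouse thymus by 5 proliferation genes. A cell with at least 500 genes, at least 1000 unique molecular identifiers (UMIs, each 1 counted mRNA molecule) and at most 15% mitochondrial UMIs was a member under 4 conditions. Its summed UMIs of Mki67, Top2a, Birc5, Ube2c and Cenpf reached 6 per 10000, at least 3 of those genes were detected, Epcam had at least 1 UMI, and the leukocyte gene Ptprc had 0. The rule found 325 cells among 10546 Epcam-positive, Ptprc-0 cells (called epithelial cells here), and among 18399 deposited barcodes. There were 197 members in the library labelled fl/fl and 128 in the library labelled +/fl.

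The study set mTECs with a conditional deletion of Ikaros, a zinc-finger transcription factor encoded by Ikzf1, against control mTECs. The library labelled fl/fl came from thymus with the genotype Foxn1-Cre(+) Ikarosfl/fl, and the library labelled +/fl from thymus with the genotype Foxn1-Cre(+) Ikaros+/fl. Foxn1-Cre, shared by both, drives recombination in thymic epithelium from the Foxn1 promoter. The matrix names chosen by the submitters say the opposite, calling the library labelled fl/fl control and the library labelled +/fl KO. Every direction below is therefore between libraries by their labels. Cells were sorted as EPCAM-positive and Ly51-negative, a gate that keeps medullary and removes cortical epithelium, and were prepared with the 10x Genomics 3' kit. Age, sex, number of mice and deleted exons are not given in the labels. There was 1 library per genotype, so no difference has a replicate check, no test was made, and all 95% intervals cover counting error only. Xist, which coats the inactive X chromosome of females, had 0 UMIs in the cycling cells labelled fl/fl and 4178 UMIs in those labelled +/fl, so sex and genotype as labelled cannot be told apart.

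The medulla is renewed throughout life, and proliferating mTECs are known to include immature cells on the way to the Aire-expressing stage. Aire is the regulator that lets mTECs transcribe tissue-restricted genes, and Ccl21a is the chemokine by which immature medullary cells attract newly selected thymocytes. A cell preparing to divide first makes the licensing and DNA synthesis machinery under E2F factors, then the kinases, kinetochore and spindle proteins of mitosis, whose promoters often carry CHR and CCAAT elements. CHR stands for cell cycle genes homology region.

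The 5 genes of the rule belong to that later programme. Mki67 coats mitotic chromosomes, Top2a (topoisomerase II alpha) untangles sister DNA, and Birc5 (survivin) is a subunit of the chromosomal passenger complex. Ube2c is a ubiquitin-conjugating enzyme of the anaphase-promoting complex, and Cenpf sits at the outer kinetochore. Their promoters are shown because 4 of the 5 genes that chose the cells carry both elements, together with those of Pclaf, a marker the rule did not use, and of Mcm5, a subunit of the replicative helicase. Capitals mark the CHR-type letters TTTGAA or TTCGAA, the CCAAT box and the E2F-type letters TTTCCCGC or TTTGGCGC, on either strand. Each stretch runs 5′ to 3′ on the gene's strand from 250 bases before to 50 bases after the annotated start, from RefSeq on GRCm38.p6. Top2a lies at chr11:99024140-99024439 on the minus strand, Ube2c at chr2:164769679-164769978 on the plus strand, Mki67 at chr7:135716330-135716629 on the minus strand and Cenpf at chr1:189688037-189688336 on the minus strand. Pclaf lies at chr9:65890073-65890372 and Mcm5 at chr8:75109259-75109558, both on the plus strand.
Top2a: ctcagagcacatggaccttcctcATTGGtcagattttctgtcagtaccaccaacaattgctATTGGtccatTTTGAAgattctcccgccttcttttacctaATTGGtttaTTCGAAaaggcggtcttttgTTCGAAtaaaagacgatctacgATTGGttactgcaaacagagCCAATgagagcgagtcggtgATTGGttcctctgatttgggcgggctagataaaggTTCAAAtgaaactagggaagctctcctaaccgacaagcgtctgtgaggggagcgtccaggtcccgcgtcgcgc
Ube2c: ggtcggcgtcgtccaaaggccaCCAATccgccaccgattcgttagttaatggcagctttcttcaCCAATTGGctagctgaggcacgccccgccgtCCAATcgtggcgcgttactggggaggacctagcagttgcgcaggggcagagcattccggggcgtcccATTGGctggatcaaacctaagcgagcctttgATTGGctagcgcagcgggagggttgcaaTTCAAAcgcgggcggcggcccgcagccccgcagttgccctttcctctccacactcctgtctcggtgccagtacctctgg
Mki67: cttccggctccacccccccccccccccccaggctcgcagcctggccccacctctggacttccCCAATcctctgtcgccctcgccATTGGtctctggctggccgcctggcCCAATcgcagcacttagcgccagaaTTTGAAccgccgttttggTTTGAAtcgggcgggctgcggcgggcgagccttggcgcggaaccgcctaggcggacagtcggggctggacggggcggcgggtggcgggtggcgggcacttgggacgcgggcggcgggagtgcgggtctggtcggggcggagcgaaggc
Cenpf: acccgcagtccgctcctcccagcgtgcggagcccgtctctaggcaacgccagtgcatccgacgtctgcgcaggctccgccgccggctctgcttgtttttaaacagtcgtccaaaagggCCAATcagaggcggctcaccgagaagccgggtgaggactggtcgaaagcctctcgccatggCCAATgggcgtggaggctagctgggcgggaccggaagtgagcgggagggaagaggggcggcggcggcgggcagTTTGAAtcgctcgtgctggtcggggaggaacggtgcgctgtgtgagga
Pclaf: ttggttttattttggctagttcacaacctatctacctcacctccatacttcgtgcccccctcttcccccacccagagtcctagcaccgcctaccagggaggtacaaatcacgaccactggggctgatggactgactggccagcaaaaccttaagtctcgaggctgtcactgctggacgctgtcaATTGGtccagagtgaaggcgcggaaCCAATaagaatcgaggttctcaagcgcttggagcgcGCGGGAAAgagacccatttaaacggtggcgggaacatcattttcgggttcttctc
Mcm5: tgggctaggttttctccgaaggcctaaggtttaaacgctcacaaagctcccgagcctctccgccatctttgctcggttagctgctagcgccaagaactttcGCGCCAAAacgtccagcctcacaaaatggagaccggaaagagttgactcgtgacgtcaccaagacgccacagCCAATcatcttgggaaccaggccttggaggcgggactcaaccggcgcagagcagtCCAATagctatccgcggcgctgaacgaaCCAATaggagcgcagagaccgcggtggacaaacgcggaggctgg

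CHR-type letters stood 4 times in the Top2a stretch, 2 times in that of Mki67 and 1 time each in those of Ube2c and Cenpf. The Birc5 stretch held 0 matches to the searched motifs. Pclaf and Mcm5 held CCAAT boxes and 1 E2F-type match each, with 0 CHR-type matches. Over 27025 mouse promoters of the same length, 19.4% held CHR-type letters, 37.9% a CCAAT box and 1.63% E2F-type letters. CHR-type letters stood in 20 of 24 promoters found for the kinetochore and spindle list and in 8 of 11 for the mitotic cyclins and kinases. They stood in 2 of 22 for the S-phase list and in 3 of 16 for the G1/S cyclins and licensing list. E2F-type letters stood in 7 of 16 licensing promoters, 4 of 22 S-phase promoters, 1 of 24 kinetochore promoters and 0 of 11 mitotic promoters. A CCAAT box stood in 17 of 24 kinetochore, 10 of 11 mitotic, 13 of 22 S-phase and 10 of 16 licensing promoters, so it was frequent in the early lists too. These are matches of letters, and binding was not measured.

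Cycling cells made up 2.91% (2.53 to 3.34) of 6759 epithelial cells in the library labelled fl/fl and 3.38% (2.83 to 4.01) of 3787 in the library labelled +/fl. The intervals overlap. More UMIs were counted in cycling cells than in other epithelial cells, but the need for at least 3 detected rule genes itself favours deep cells. Cycling cells had a median of 22981 UMIs in the library labelled fl/fl, against 9232 in other epithelial cells. In the library labelled +/fl they had 28628 UMIs, against 11544. They detected a median of 4912 genes in the library labelled fl/fl and 5605 in the library labelled +/fl. The range was wide, 2171 to 96582 UMIs per cell labelled fl/fl and 1159 to 81943 per cell labelled +/fl, and summed values below weigh deep cells more. The 2 libraries shared 25 barcodes, 1 of them a cycling cell labelled fl/fl and 0 of them cycling cells labelled +/fl. A doublet caller marked 0 and 2 cells by its automatic threshold in the libraries labelled fl/fl and +/fl, so no cell was removed by it. Of the cycling cells, 9.64% labelled fl/fl and 3.91% labelled +/fl were among the highest doublet scores, against 6.31% and 3.44% of other epithelial cells.

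Epithelial markers the rule did not use were present, with the keratin Krt8 at 1233 UMIs per 1000000 (CPM) in cycling cells labelled fl/fl and 1388 CPM in those labelled +/fl. Foxn1, the master regulator of thymic epithelium, had 36.2 and 42.6 CPM. The 12 T-lineage genes summed to 33.6 CPM in cycling cells labelled fl/fl and 42.1 CPM in those labelled +/fl. Cells past the 5-gene rule but removed for Ptprc carried 1655 and 3339 CPM of the same genes. All 12 T-lineage genes had a UMI in cycling cells labelled fl/fl, and 9 of 12 in those labelled +/fl, where Cd3e, Cd8b1 and Rag1 were at 0. The 10 myeloid and dendritic genes summed to 413 CPM in cycling cells labelled fl/fl and 162 CPM in those labelled +/fl, and the lysozyme gene Lyz2 alone gave 376 and 122 CPM. Siglech was at 0 in both libraries, Clec9a in the library labelled fl/fl and Itgax in the library labelled +/fl. Fibroblast genes summed to 27.5 and 74.5 CPM, with 7 of 7 detected in each library, and B-lineage genes to 44.6 and 44.4 CPM, with 5 of 5 detected in each. Endothelial genes gave 6.57 and 4.24 CPM, with Kdr and Tie1 at 0 in both, and erythroid genes 29.5 and 0.249 CPM. At least 2 UMIs of these other lineages were present in 67.5% of cycling cells labelled fl/fl and 79.7% of those labelled +/fl, against 61.2% and 62.3% of other epithelial cells. These shares were not set to equal depth, and cycling cells were deeper. By CPM, other epithelial cells held more of the myeloid and dendritic (802 and 287), fibroblast (116 and 254) and B-lineage genes (68.3 and 97.2). Their T-lineage sums were 54.7 and 34.1 CPM, above cycling cells labelled fl/fl and below those labelled +/fl. Results that moved without cells carrying other-lineage UMIs are given with their values, and they rest on the smaller part of cycling cells that remained. The myeloid and dendritic genes summed to 441 CPM in cycling cells with Aire and 59.4 CPM in those without labelled fl/fl, and 182 and 18.4 CPM labelled +/fl. Whether other-lineage UMIs are contamination was not tested. The 7 cortical epithelium genes summed to 446 CPM in cycling cells labelled fl/fl and 764 CPM in those labelled +/fl, against 1018 and 1115 CPM in other epithelial cells. The protease gene Ctsl gave 334 and 597 CPM of the sum in cycling cells and the chemokine gene Ccl25 65.9 and 113 CPM, while Psmb11, the thymoproteasome gene that defines cortical epithelium, had 7 and 8 UMIs.

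The rule's own genes are a description of the choice. Mki67 was detected in 97.0% of members labelled fl/fl and 93.8% of members labelled +/fl, Birc5 in 91.9% and 92.2%, Cenpf in 94.9% and 94.5%, Top2a in 91.9% and 85.9%, and Ube2c in 85.3% and 85.2%. All 5 were present in 140 and 81 members, 4 in 37 and 32, and exactly 3 in 20 and 15. The summed level per cell reached 87.4 per 10000 in the library labelled fl/fl and 64.7 in the library labelled +/fl. Just inside the threshold, from 6 to under 7 per 10000, lay 15 cells labelled fl/fl with 2933 CPM of the S-phase list and 8 cells labelled +/fl with 1830 CPM. Just outside, from 5 to under 6, lay 13 cells labelled fl/fl with 961 CPM and 8 cells labelled +/fl with 2175 CPM. Among epithelial cells with the summed level but only 2 genes detected were 21 cells labelled fl/fl and 7 labelled +/fl, with median UMIs of 4782 and 5310. Pclaf, the PCNA-associated factor made in S phase and not used by the rule, was detected in 163 of 197 members labelled fl/fl (82.7%) and 98 of 128 labelled +/fl (76.6%). Other epithelial cells carried it in 3.61% and 3.74%.

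Cycling cells also set themselves apart from other epithelial cells in genes the rule did not name, which follows from the same contrast and is given as a description. Of 3635 genes compared in the library labelled fl/fl, 7.98% were at least 2-fold higher in cycling cells and 11.6% at least 2-fold lower. In the library labelled +/fl these were 6.81% and 9.48% of 3627 genes. A gene was compared when it reached 50 CPM in either side and 50 UMIs over both. Highest in the library labelled fl/fl was the linker histone Hist1h1b, with 139 against 1.88 CPM, and 117 against 1.498 CPM in the library labelled +/fl. The spindle protein gene Nusap1 had 130.2 against 1.98 CPM labelled fl/fl and 161 against 1.23 CPM labelled +/fl, a larger ratio than that of Hist1h1b in the library labelled +/fl. Pclaf had 387 against 7.71 CPM and 307 against 9.10 CPM. Histone genes have near-identical copies, so the count of any single one is uncertain. Hmgb2, a chromatin protein of dividing cells, stood at 1729 against 175 CPM and at 1744 against 146 CPM. Stmn1, which regulates microtubules in mitosis, stood at 805 against 70.1 CPM and at 990 against 99.2 CPM.

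Several genes of end-stage mTEC fates were lower in cycling cells, and some ciliary genes were higher. Ccl20, the chemokine of microfold cells, had 19.5 CPM in cycling cells labelled fl/fl against 460 CPM in other epithelial cells, and 4.99 against 150 CPM in the library labelled +/fl. All 7 keratinocyte genes compared were at least 2-fold lower in cycling cells labelled fl/fl (median log2 −2.82), as were all 6 compared in the library labelled +/fl (median −1.93). All 8 and all 10 tuft genes compared were at least 2-fold lower, with medians of −2.42 and −2.80. A gene that reached 50 CPM only in other epithelial cells could only be lower, so these counts are partly set by the filter. All keratinocyte genes, compared or not, summed to 217 CPM in cycling against 1304 CPM in other cells labelled fl/fl, and 252 against 910 CPM labelled +/fl. All tuft genes summed to 197 against 1056.5 CPM and 508 against 3894 CPM. Of the microfold and enterocyte list 5 of 7 and 2 of 5 compared genes were at least 2-fold lower. The list of neuroendocrine, ciliated and secretory genes did not share that direction, with 1 of 6 compared genes at least 2-fold higher and 3 lower labelled fl/fl, and 4 of 5 higher and 1 lower labelled +/fl. In it the ciliary dynein gene Dynlrb2 had 110 against 9.70 CPM and 123 against 3.31 CPM, and the ciliary factor Foxj1 62.3 against 34.4 CPM and 57.8 against 18.3 CPM. Ltf (lactoferrin) was 1 of the 4 higher genes labelled +/fl (log2 2.52), where its 275 UMIs lay in 1 cell. It was lower labelled fl/fl (−2.50). Of the brakes on the cell cycle and p53 targets compared, 9 of 12 were lower labelled fl/fl, 6 of them at 2-fold, and 6 of 9 labelled +/fl, 2 of them at 2-fold (medians −0.94 and −0.45). In that list Cdkn1c (p57) had 174 CPM in cycling cells against 426 CPM in the library labelled fl/fl and 178 against 836 CPM in the library labelled +/fl. The antiproliferative gene Btg2 had 272 against 659 CPM and 288 against 721 CPM, and the p53 target Cdkn1a (p21) 132 against 329 CPM and 150 against 288 CPM.

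The members were spread along the cell cycle. The S-phase list of 26 genes, which holds the enzymes that make nucleotides and copy DNA, summed to 2272 CPM (2231 to 2314) in cycling cells labelled fl/fl and 2003 CPM (1959 to 2047) in those labelled +/fl. The 14 mitotic cyclins and kinases summed to 1008 CPM (980 to 1036) and 1086 CPM (1054 to 1119). The ratio of S-phase to mitotic UMIs was 2.25 in the library labelled fl/fl and 1.84 in the library labelled +/fl. S-phase UMIs outnumbered mitotic UMIs in 132 of 197 cells labelled fl/fl (67.0%, 59.97 to 73.5) and 70 of 128 labelled +/fl (54.7%, 45.7 to 63.5). The intervals of that share overlap, and the ratio depends on the rule: from a threshold of 10 per 10000 it was 1.89 and 1.44, and without cells carrying other-lineage UMIs it was 2.08 and 2.10.

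Per cell, the S-phase list had a median of 15.5 UMIs per 10000 (0 to 66.0) in the library labelled fl/fl and 10.7 (2.20 to 70.8) in the library labelled +/fl. The mitotic list had medians of 9.068 (0 to 35.7) labelled fl/fl and 8.0004 (0 to 40.9) labelled +/fl. Ranked over cells, the S-phase and mitotic lists showed little relation, with Spearman's rho −0.09 over 197 cells labelled fl/fl and 0.09 over 128 labelled +/fl. The S-phase and licensing lists moved together (rho 0.74 and 0.64), and so did the mitotic list and the kinetochore list (rho 0.70 and 0.84). Each of these pairs is measured in the same cells and shares their depth. Outside the members, 83 epithelial cells labelled fl/fl (1.26%) and 108 labelled +/fl (2.95%) reached the median S-phase level of the members of their own library. That level was 15.5 per 10000 labelled fl/fl and 10.7 labelled +/fl, so the shares cannot be compared between libraries.

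**Figure D1:**
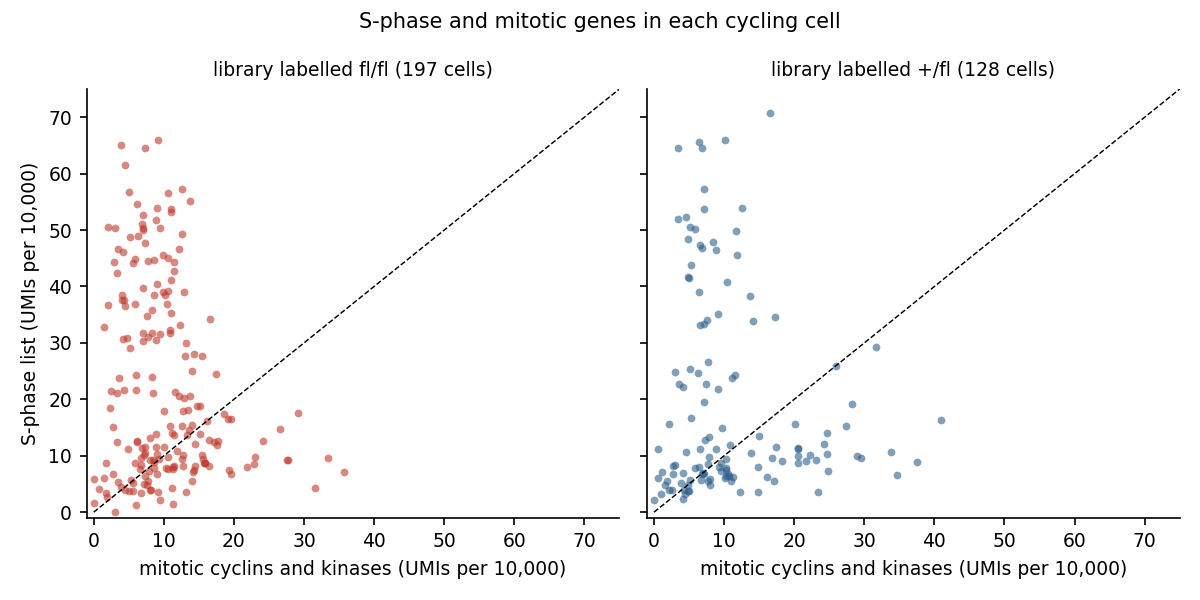
UMIs of the S-phase list (vertical) against UMIs of the mitotic cyclins and kinases (horizontal) per 10000 UMIs in each cycling cell, 197 cells labelled fl/fl on the left and 128 labelled +/fl on the right. The dashed line marks equal levels, and 67.0% of cells labelled fl/fl and 54.7% of those labelled +/fl had more S-phase than mitotic UMIs.

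Between the libraries, 3253 genes were compared in cycling cells. Of them 72 (2.21%) were at least 2-fold higher in the library labelled fl/fl and 53 (1.63%) at least 2-fold lower, and the median log2 ratio was −0.02. The cell cycle machinery stood at close levels, with 0 of its compared members at 2-fold. The rule set the same minimum of late-cycle genes in both libraries, so close mitotic and kinetochore levels partly follow from the choice of cells. In the S-phase list 12 of 14 compared genes stood higher with the fl/fl label (median log2 0.22, and −0.12 in the cells without Aire). Rrm2, the small subunit of ribonucleotide reductase, had 129 CPM labelled fl/fl and 89.5 CPM labelled +/fl, and Pclaf 387 and 307 CPM. Uhrf1, which guides maintenance methylation, had 96.4 and 75.5 CPM, while Pcna, the sliding clamp, had 112 and 108 CPM and Dnmt1, the maintenance methyltransferase, 66.3 and 70.1 CPM. Of the licensing list 6 of 8 compared genes were higher (median 0.23). The D-type cyclins went opposite ways, with Ccnd2 at 484 and 400 CPM and Ccnd1 at 129 and 163 CPM.

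In the kinetochore and spindle list 19 of 23 compared genes stood lower with the fl/fl label (median log2 −0.09). The largest differences in it were in the spindle protein Ckap2, with 38.4 CPM labelled fl/fl and 69.3 CPM labelled +/fl, and in the centromeric histone Cenpa, with 74.9 and 105 CPM. Of 8 mitotic cyclins and kinases compared, 5 were lower (median −0.07, and 0.24 without cells carrying other-lineage UMIs). The mitotic cyclin Ccnb2 had 70.9 CPM labelled fl/fl and 110 CPM labelled +/fl, Ccnb1 93.0 and 114 CPM, and Polo-like kinase Plk1 51.2 and 71.0 CPM. Cdk1, the kinase those cyclins activate, stood at 288 and 279 CPM. Cdc20, the activator of the anaphase-promoting complex, had 127 and 171 CPM. The chromatin and condensation list, with the condensin subunits Smc2 and Smc4, had a median of −0.02 over 12 compared genes.

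Ikzf1, the targeted gene, was carried by 60.9% of cycling cells labelled fl/fl and 64.8% of those labelled +/fl. Its level was 60.3 CPM (53.7 to 67.5, 303 UMIs) in cycling cells labelled fl/fl and 64.1 CPM (56.5 to 72.4, 257 UMIs) in those labelled +/fl. The intervals overlap, and the log2 ratio of −0.09 had the other sign under 4 alternatives, up to 0.47 without cells carrying other-lineage UMIs. Other epithelial cells held 35.2 and 63.1 CPM. A 3' count does not show whether a floxed exon is present, so Ikzf1 counts check neither set of labels. The other Ikaros family genes, Ikzf2 to Ikzf5, lay between 1.39 and 14.5 CPM labelled fl/fl and between 0.499 and 17.2 CPM labelled +/fl. Within cycling cells, those with Aire held 63.8 CPM of Ikzf1 and those without 16.2 CPM in the library labelled fl/fl, and 70.7 and 16.4 CPM in the library labelled +/fl.

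The Aire-stage and immature lists had medians further from equal than the S-phase, licensing, mitotic and kinetochore lists. The rule chose cells by cycle genes, so this order is partly set by the choice. All 6 compared genes of the 10 on the Aire-stage list stood higher in cycling cells labelled fl/fl, with a median log2 of 0.78 and 0 of them at 2-fold. Aire had 395 CPM (378 to 413) labelled fl/fl and 204 CPM (191 to 219) labelled +/fl. T-lineage cells, which should lack Aire, also held more of it labelled fl/fl, with values given below. How much of the Aire difference between libraries is background was not tested. Utf1, a chromatin-associated gene best known from embryonic stem cells, had 299 and 163 CPM, the interferon regulatory factor Irf8 204 and 112 CPM, and Cd40, a receptor that drives mTEC maturation, 127 and 77.8 CPM. Fezf2, another regulator of tissue-restricted genes, had 395 and 331 CPM, and Tnfrsf11a, the receptor RANK, 99.4 and 82.0 CPM. All 6 compared genes of the RANK and NF-kB list were higher (median 0.38). All 9 class II genes were higher (median 0.45), with 1 at 2-fold, H2-Oa, at 176 and 83.5 CPM. Cd74, the invariant chain, had 11013 and 8081 CPM, and H2-Aa 3393 and 2492 CPM.

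The immature list ran the other way, with 8 of 9 compared genes lower in cycling cells labelled fl/fl (median log2 −0.50) and 1 at 2-fold. That gene was Krt5, a keratin of basal epithelium, at 395 CPM labelled fl/fl and 799 CPM labelled +/fl. Krt14, its partner keratin, had 427 and 717 CPM, and Krt17 2022 and 3065 CPM. Ccl21a had 1213 CPM (1183 to 1244) labelled fl/fl and 2138 CPM (2093 to 2184) labelled +/fl, a log2 ratio of −0.82 that was 0.31 in the cells without Aire. Ccl21a has near-identical copies in the mouse genome, so its count may be split among them. Of 10 interferon-response genes compared, 9 were lower (median −0.43), with Isg15, a ubiquitin-like modifier, at 103 and 208 CPM and Ifi27l2a at 742 and 1558 CPM. These 2 were its members at 2-fold. Isg15 did not keep its direction without cells carrying other-lineage UMIs, where its log2 ratio was 0.057 in place of −1.01. Of 4 tuft genes compared all were lower, 3 at 2-fold, among them Lrmp at 40.4 and 114 CPM and Dclk1, a microtubule kinase of tuft cells, at 33.4 and 73.8 CPM. Lrmp, Dclk1 and Rgs13 reached 50 CPM only in the library labelled +/fl, so their direction is partly set by the filter. All 12 tuft genes, compared or not, summed to 197 CPM labelled fl/fl and 508 CPM labelled +/fl.

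Split by Aire, the Aire-stage, immature and interferon medians lay near 0 in the cells without Aire and away from it in the cells with Aire. Aire UMIs without thinning set the classes, so Aire, on the Aire-stage list, could not be compared in the cells without it. The cells without Aire were shallow, with median UMIs of 10278 labelled fl/fl and 14132 labelled +/fl. Background Aire, given below, differed between the libraries, and whether the classes hold like cells in both was not tested. In the 167 and 99 cells with Aire the medians were 0.74 for the Aire-stage list, −0.55 for the immature list, −0.45 for the interferon list and 0.42 for class II. In the 30 and 29 cells without Aire they were −0.029, 0.066, 0.037 and 0.27. The tuft median was negative in both, at −1.06 with Aire and −1.23 without, under the same filter. Other epithelial cells showed medians of the same sign as all cycling cells, with 0.84 for the Aire-stage list, −0.41 for the immature list, −0.35 for the interferon list, 0.89 for class II and −1.76 for the tuft list. Over all 3561 genes compared in them, 6.68% were at least 2-fold higher and 3.65% at least 2-fold lower in the library labelled fl/fl. Whether the libraries differ less in cycling than in other cells was not tested.

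**Figure D2:**
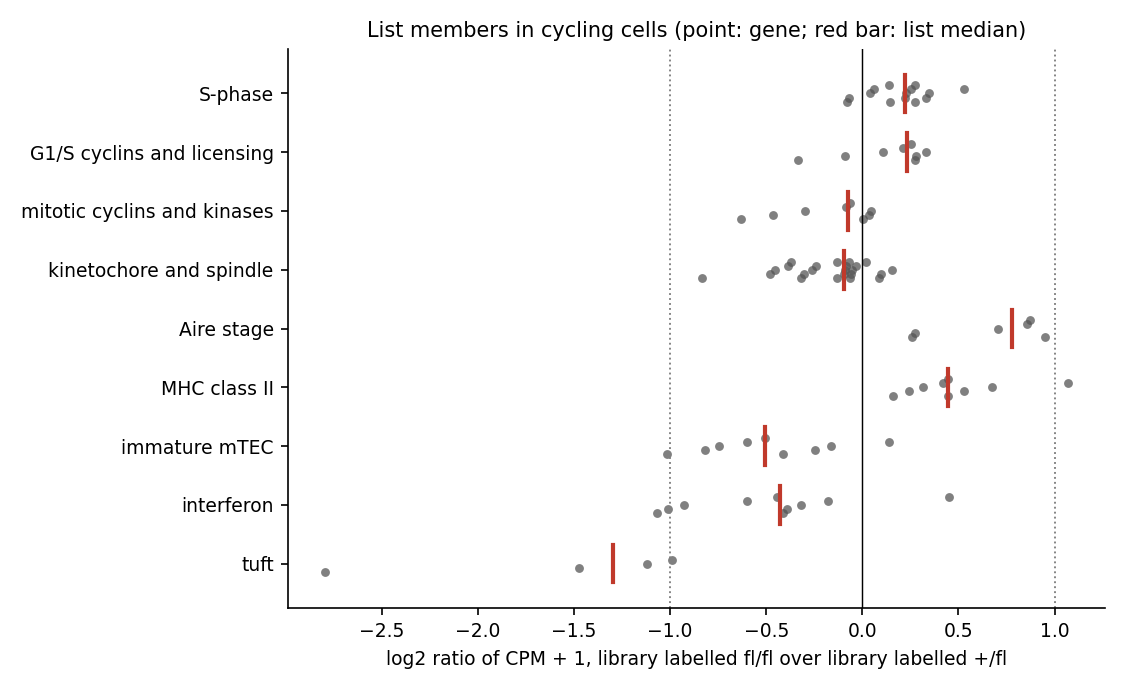
Log2 ratio of CPM + 1 in cycling cells labelled fl/fl over cycling cells labelled +/fl (horizontal) for each compared gene of 9 lists (points), with the list median as a red bar and dotted lines at 2-fold. The S-phase, licensing, mitotic and kinetochore medians lie between −0.09 and 0.23, the Aire-stage median at 0.78, the immature median at −0.50 and the tuft median at −1.30. The tuft median is over 4 compared genes, 3 of which reached 50 CPM only in the library labelled +/fl.

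The genes at the ends of the ratio were carried by few cells. Zg16, a secretory granule protein of gut and pancreas, had 339 UMIs in 6 cycling cells labelled fl/fl and 0 in those labelled +/fl, at least 90.2-fold higher at a floor of 3 UMIs over the group. A single cell held 64.3% of those UMIs. Apoa1, the main apolipoprotein of HDL, had 643 UMIs in 18 cells labelled fl/fl and 7 UMIs in 3 cells labelled +/fl (log2 5.55). The neuropeptide genes Gal and Nts had 481 UMIs in 20 cells and 475 UMIs in 26 cells labelled fl/fl, and 11 UMIs each in 2 and 4 cells labelled +/fl. The islet peptide gene Iapp had 294 UMIs in 19 cells and 4 UMIs in 4 cells. Slpi, a protease inhibitor of mucosa, had 418 and 8 UMIs, Ptgds, a prostaglandin D synthase, 296 and 6 UMIs, and Pcp4 467 and 12 UMIs. Rptn had 284 and 3 UMIs and the chemokine gene Ccl8 270 and 2 UMIs. In the library labelled fl/fl 1 cell held 57.4% of the Slpi, 61.2% of the Pcp4 and 60.7% of the Ccl8 UMIs.

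The genes lowest in the library labelled fl/fl were carried by more cells, with 1 exception. Fxyd2, a regulator of the sodium pump, was present in 118 cells labelled fl/fl with 155 CPM and in 103 cells labelled +/fl with 709 CPM (log2 −2.18). Stmn2 was present in 36 cells with 32.9 CPM and in 74 cells with 170 CPM, and Plpp1, a lipid phosphatase, in 57 cells with 19.5 CPM and in 96 cells with 117 CPM. Rgs13, a regulator of G-protein signalling found in tuft cells, was present in 15 cells with 12.3 CPM and in 43 cells with 91.5 CPM (log2 −2.79). Lbhd2, Calb1, Akap12, Gpx6 and Krtdap lay between −2.37 and −2.01. The exception was Ltf (lactoferrin), whose 275 UMIs labelled +/fl came from 1 cell, against 62 UMIs in 9 cells labelled fl/fl. Its log2 ratio was −2.38 with that cell and 2.96 without the top cell of each library. Of the other low genes, Akap12 and Fxyd2 had log2 ratios of 1.46 and 0.18 in the cells without Aire.

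**Figure D3:**
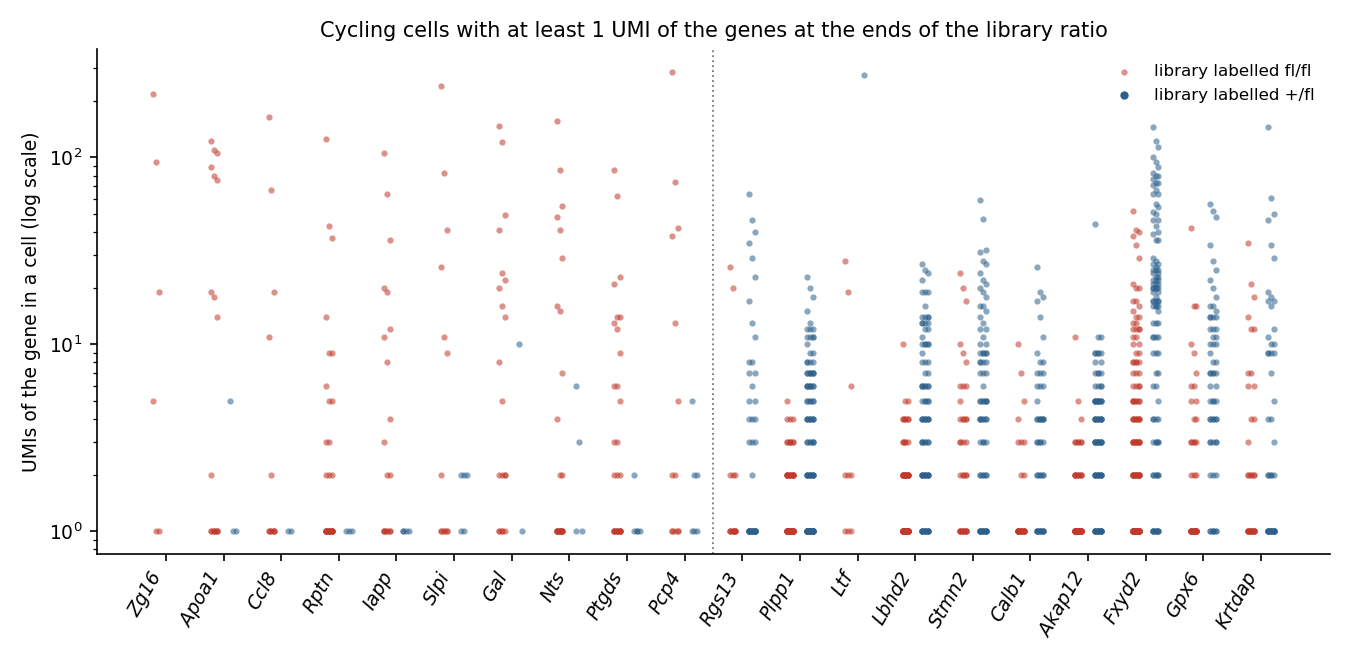
UMIs of a gene in each cycling cell with at least 1 UMI of it (vertical, log scale) for the 10 genes highest and the 10 lowest in cycling cells labelled fl/fl over those labelled +/fl, with fl/fl in red left of +/fl in blue. Zg16 has 6 cells labelled fl/fl and 0 labelled +/fl, and Ltf a single cell labelled +/fl, while Fxyd2 has 118 and 103.

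Of 15 genes often used as examples of tissue-restricted antigens, 4 were compared and all stood higher with the fl/fl label, 3 at 2-fold. These were Pcp4 and Nts, given above, and S100a8, a calprotectin gene, with 141 CPM labelled fl/fl and 52.9 CPM labelled +/fl. Pcp4 and Nts reached 50 CPM only in the library labelled fl/fl, so their direction is partly set by the filter. The whole list, compared or not, summed to 801 CPM labelled fl/fl and 432 CPM labelled +/fl. The milk casein Csn2 had 369 and 308 CPM. The other antigens were carried unevenly. The insulin gene Ins2 had 117 UMIs labelled fl/fl and 0 labelled +/fl, the somatostatin gene Sst 124 and 9 UMIs, and Tff3, a mucosal trefoil peptide, 21 and 118 UMIs.

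Aire was read in each cell after thinning it to 5000 UMIs, because deeper cells detect more genes. It was present in 120 of 193 cycling cells labelled fl/fl (62.2%, 54.9 to 69.0) and 56 of 123 labelled +/fl (45.5%, 36.5 to 54.8). Thinning left out 4 and 5 shallower cycling cells, and without it the shares were 84.8% and 77.3%. Other epithelial cells carried Aire in 50.4% and 28.7% after thinning, which left out 24.96% and 19.3% of them. T-lineage cells of the same libraries, which should lack Aire, had it in 9 of 22 (40.9%, 20.7 to 63.6) labelled fl/fl and 0 of 18 labelled +/fl, which allows a share of up to 16.7%. All Ptprc-positive cells with 0 Epcam UMIs had it in 35 of 70 (37.8% to 62.2%) labelled fl/fl and 12 of 78 (8.21% to 25.3%) labelled +/fl. The interval of the T-lineage cells labelled fl/fl overlaps that of the cycling cells of the same library. Levels were further apart, with 395 CPM in cycling and 124 CPM in T-lineage cells labelled fl/fl, and 204 and 18.1 CPM labelled +/fl. The T-lineage level was thus also higher labelled fl/fl. Its part in the Aire difference between the libraries, in level and in share of cells, was not tested. At least 10 Aire UMIs were present in 69 cycling cells labelled fl/fl (35.0%) and 35 labelled +/fl (27.3%).

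With all UMIs counted, the share of epithelial cells that cycled was larger in the classes with more Aire. In the library labelled fl/fl it was 1.10% of cells with 0 Aire UMIs, 1.97% with 1, 4.15% with 2 to 9 and 7.25% with 10 or more. In the library labelled +/fl it was 1.40%, 2.82%, 6.71% and 11.5%. Depth moved with these classes, with median UMIs of 6279, 8290, 12455 and 20683 labelled fl/fl and 9472, 12175, 21404 and 29487 labelled +/fl. After thinning every cell before both the rule and the class, the shares with 0, 1 and 2 to 9 UMIs were 2.31%, 3.13% and 4.34% labelled fl/fl and 2.07%, 4.09% and 5.14% labelled +/fl. With 1 or more Aire UMIs 3.80% (3.1005 to 4.61) and 4.53% (3.27 to 6.10) cycled. The order did not hold to the top of the range. From 2 to 4 UMIs the thinned share was 4.598% labelled fl/fl and 5.71% labelled +/fl, and with 5 or more it was 3.56% (18 of 505 cells, 2.13 to 5.57) and 2.60% (2 of 77 cells, 0.316 to 9.07). With 10 or more it was 2 of 75 and 0 of 3 cells. Even after thinning, cells of the higher classes had been deeper before it (medians of 10826, 11679 and 15475 UMIs labelled fl/fl), and the part of cell size was not tested.

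**Figure D4:**
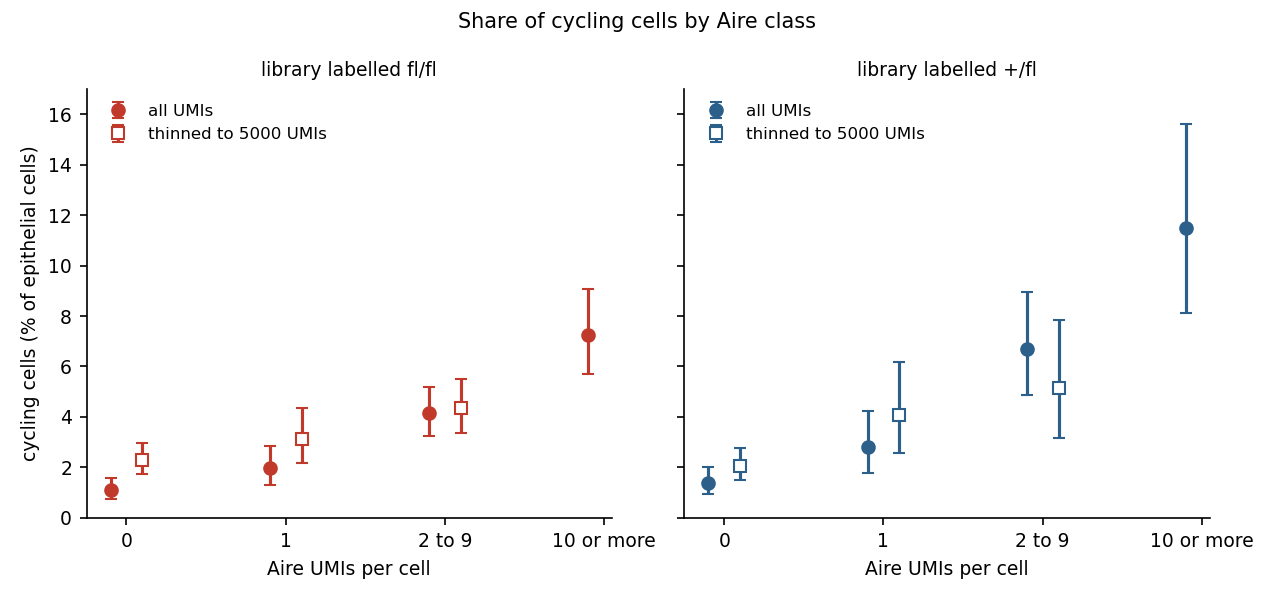
Cycling cells as a percentage of epithelial cells (vertical) by Aire UMIs per cell (horizontal), fl/fl on the left and +/fl on the right, with exact 95% binomial intervals, for all UMIs (filled) and after thinning to 5000 UMIs (open). The thinned shares are 2.31%, 3.13% and 4.34% labelled fl/fl and 2.07%, 4.09% and 5.14% labelled +/fl.

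Cycling cells ranged over 3 classes of Ccl21a, high from 20 UMIs per 10000 and low below 1. Low cells were 33.5% of cycling cells labelled fl/fl and 16.4% of those labelled +/fl, and middle cells 45.7% and 46.1%. High cells were 41 of 197 labelled fl/fl (20.8%, 15.4 to 27.2) and 48 of 128 labelled +/fl (37.5%, 29.1 to 46.5), and these intervals do not overlap. Among other epithelial cells 26.6% and 32.4% were high, and among T-lineage cells 1 of 80 and 0 of 55. Per cell, Ccl21a had a median of 1.85 UMIs per 10000 (0 to 256) labelled fl/fl and 8.45 (0 to 245) labelled +/fl. The cycling share had no order over these classes that both libraries shared. It was 3.47% of low, 3.14% of middle and 2.41% of high cells labelled fl/fl after thinning, and 2.32%, 3.40% and 2.55% labelled +/fl.

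High Ccl21a was less frequent in cycling cells with more Aire. Of the 30 and 29 cycling cells without Aire, 19 labelled fl/fl and 18 labelled +/fl were Ccl21a-high. Of the 69 and 35 cells with at least 10 Aire UMIs, 5 and 5 were. The 2 genes were still found together, and of the Ccl21a-high cycling cells 22 of 41 labelled fl/fl (53.7%) and 30 of 48 labelled +/fl (62.5%) had at least 1 Aire UMI. After thinning, Aire was present in 70.8%, 70.5% and 30.0% of Ccl21a-low, middle and high cycling cells labelled fl/fl, and in 68.4%, 47.5% and 33.3% of those labelled +/fl. The share in high cells labelled fl/fl (12 of 40, 16.6 to 46.5) lies below the 40.9% of T-lineage cells of that library, a share at which background cannot be told apart. Without thinning, 9 Ccl21a-high cells labelled fl/fl had 2 to 9 Aire UMIs and 5 had 10 or more. Those 5 were deep cells, with 38818 to 76096 UMIs and 3.03 to 6.96 Aire UMIs per 10000. The part of background in these counts was not tested. Spearman's rho between the 2 genes per 10000 UMIs was −0.34 over 197 cells labelled fl/fl and −0.40 over 128 labelled +/fl.

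**Figure D5:**
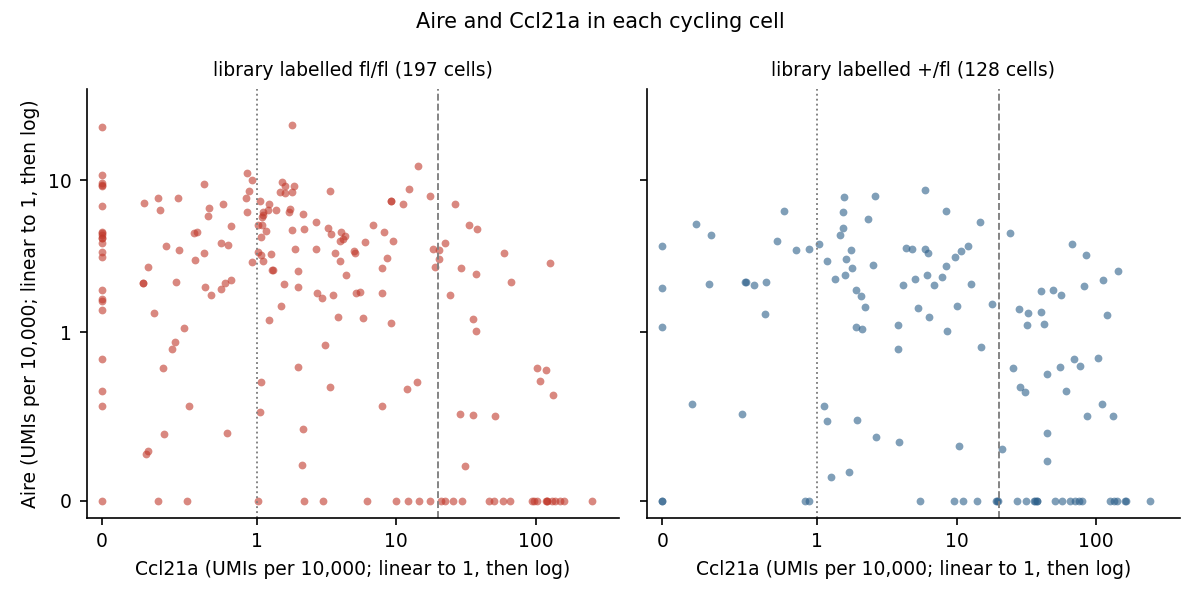
Aire (vertical) against Ccl21a (horizontal) in each cycling cell, in UMIs per 10000, linear up to 1 and logarithmic above, 197 cells labelled fl/fl on the left and 128 labelled +/fl on the right. The dotted and dashed lines bound the Ccl21a classes at 1 and 20, and 41 cells labelled fl/fl and 48 labelled +/fl lie right of the dashed line.

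Cycling cells with Aire and cycling cells without it differed in mTEC genes and little in cell cycle genes. Both classes had passed the same cycle rule, which limits how far their cycle genes can differ. Aire itself chose the classes. Of 3594 genes compared labelled fl/fl, 9.27% were at least 2-fold higher with Aire and 9.82% lower, and of 3435 labelled +/fl 5.88% were higher and 5.5% lower. The S-phase list had a median log2 of 0.23 labelled fl/fl and 0.00 labelled +/fl, and the mitotic list 0.02 and 0.07. Summed, the S-phase list stood at 2289 CPM with Aire and 2056 CPM without labelled fl/fl, and at 2002 and 2009 CPM labelled +/fl. The kinetochore list was slightly lower with Aire, at −0.30 and −0.17, with 20 of 23 and 23 of 27 genes lower. The cells with Aire were deeper, with median UMIs of 25348 against 10278 labelled fl/fl and 32802 against 14132 labelled +/fl.

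Higher with Aire in both libraries were Laptm5, a lysosomal membrane protein, with 344 against 35.1 CPM and 306 against 30.7 CPM, and the intestinal factor Cdx1, with 194 against 2.70 CPM (904 against 1 UMI) and 123 against 12.3 CPM. The ileal bile acid binding gene Fabp6 had 415 UMIs with Aire and 0 without labelled fl/fl, and 374 and 1 labelled +/fl. The peptide hormone gene Pyy had 304 and 1 UMIs and 185 and 1 UMIs. Utf1 had 321 against 27.0 CPM and 179 against 47.1 CPM, and Cd40 135 against 27.0 CPM and 83.8 against 34.8 CPM. On the Aire-stage list 4 of 6 and 5 of 6 genes, Aire included, were at least 2-fold higher.

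Lower with Aire was Bpifa1, an airway secretory protein, with 58.2 against 1862 CPM labelled fl/fl and 113 against 2185 CPM labelled +/fl. Apoe, which carries lipid, had 168 against 981 CPM and 128 against 1058 CPM, the smooth muscle genes Tagln 38.9 against 435 CPM and 57.1 against 327 CPM and Acta2 23.2 against 254 CPM and 32.4 against 274 CPM. Ly6a (Sca-1), a marker of immature mTECs, had 97.8 against 484 CPM and 102 against 499 CPM. Of 11 and 10 immature genes compared, 7 and 5 were at least 2-fold lower with Aire (medians −1.89 and −0.85). Of 13 and 12 interferon genes, 8 and 6 were lower by that much (medians −1.67 and −1.16), with Isg15 at 67.1 against 554 CPM and 148 against 644 CPM. The stress list of early response and heat shock genes, which dissociation can raise, was lower too, by 2-fold in 9 of 14 and 6 of 14 genes (medians −1.19 and −0.97). With the classes read after thinning, the medians were −0.47 and −0.36 for the immature list, −0.45 and −0.94 for the interferon list and −0.65 and −0.52 for the stress list. The directions were then the same and the sizes smaller.

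The Ccl21a classes gave the reverse picture. Of 3507 and 3453 genes compared, 7.93% labelled fl/fl and 8.22% labelled +/fl were at least 2-fold higher in high than in low cells, and 4.51% and 4.89% lower. Tagln had 333 against 6.08 CPM labelled fl/fl and 254 against 4.24 CPM labelled +/fl. Apoe had 984 against 45.1 CPM and 623 against 12.7 CPM, and the matrix Gla protein gene Mgp 467 against 9.62 CPM and 308 CPM against 3 UMIs. The interferon list had medians of 1.78 and 1.80, with 9 of 12 and 11 of 12 genes at least 2-fold higher, and Isg15 stood at 320 against 45.6 CPM and 544 against 46.6 CPM. Of 14 stress genes 11 were 2-fold higher in each library. Fos stood at 2309 against 868 CPM and 2679 against 764 CPM, and Hspb1 at 549 against 259 CPM and 633 against 48.0 CPM. The stress and interferon lists thus moved with the Ccl21a and Aire classes, and their part in the other gene differences was not tested.

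Lower in Ccl21a-high cells were the ciliary factor Foxj1, with 11.7 against 86.1 CPM and 14.8 against 53.7 CPM, Cdx1, with 79.8 against 225 CPM and 37.4 against 140 CPM, and the costimulatory ligand gene Cd70, with 27.0 against 91.2 CPM and 21.7 against 55.1 CPM. Utf1 had 147 against 360 CPM and 67.8 against 223 CPM. The cell cycle lists stood close in high and low cells, all of which had passed the same cycle rule. The S-phase list summed to 2290 against 2234 CPM labelled fl/fl and 1944 against 2149 CPM labelled +/fl, and the mitotic list to 930 against 999 CPM and 1163 against 1057 CPM. The kinetochore medians were 0.15 and 0.14.

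Cycling cells with at least 2 Aire UMIs per 10000 were set beside other epithelial cells with that minimum. There were 114 cycling and 2392 other Aire-high cells labelled fl/fl and 49 and 694 labelled +/fl. Aire stood at 542 against 659 CPM and at 351 against 483 CPM, so its level was not matched. Of the Aire-stage list, Aire included, 7 of 8 and 5 of 6 compared genes were lower in cycling cells (medians −0.31 and −0.44). Of 3456 and 3435 genes compared, 7.96% and 5.47% were at least 2-fold higher in cycling cells and 8.83% and 5.85% lower. The tissue-restricted antigens were lower in the cycling cells, with 5 of 7 compared at 2-fold labelled fl/fl and 5 of 6 labelled +/fl (medians −2.19 and −1.90). The sixth labelled +/fl was Tff3, at 58.2 against 22.7 CPM. An antigen that reached 50 CPM only in the other Aire-high cells could only be lower, so these counts are partly set by the filter. The whole antigen list, compared or not, summed to 936 against 2903 CPM labelled fl/fl and 513 against 1607 CPM labelled +/fl. Csn2, a milk casein, had 438 against 1264 CPM and 349 against 974 CPM, and the calprotectin gene S100a8 156 against 715 CPM and 59.8 against 303 CPM. Class II genes were lower by less, with medians of −0.70 and −0.48, and H2-Aa at 3780 against 6150 CPM and 2839 against 3999 CPM. Utf1 was higher, at 374 against 232 CPM and 233 against 193 CPM. Since the cycling rule split these cells, the values describe the split.

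In the cycling Ccl21a-high cells the immature genes stood below those of other Ccl21a-high epithelial cells. The medians were −0.79 labelled fl/fl, with 3 of 10 genes at least 2-fold lower, and −0.53 labelled +/fl, with 1 of 11. Over all 3480 and 3273 genes compared, 4.17% labelled fl/fl and 2.6% labelled +/fl were that much lower in cycling cells, and 6.58% and 5.16% higher. The class II medians were −0.02 and 0.08, and the interferon medians −0.46 and −0.35.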

How the data were processed

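The deposited values are raw counts of UMIs per gene and cell barcode for 31053 genes in each of 2 libraries. Cell Ranger and Seurat are the tools named in the submitters' processing notes, without versions, and the matrix headers give software version 3.1.0. For these counts the genome build is not given in the sources used here, nor is the annotation.

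The cell filter given with the rule kept 74.0% of 11095 barcodes labelled fl/fl and 69.8% of 7304 labelled +/fl. UMIs were added up per class of cells and divided by the class total (CPM), with exact Poisson 95% intervals. Shares carry exact Clopper-Pearson intervals. Log2 ratios are of CPM + 1, over genes with at least 50 CPM on either side and 50 UMIs over both. Shares of cells with Aire were read after thinning each cell to 5000 UMIs. Scrublet, through scanpy 1.11.5, scored doublets per library, and removing its highest scores is among the alternatives. Named genes are the members of 31 gene lists and the 10 highest and 10 lowest genes between libraries, with those at the ends of each split of the cycling cells in both libraries. Where symbols repeat, the first row was used. Scripts ran in Python 3.11.15 with scipy 1.17.1 and were tested on simulated data. The members, the gene lists and the comparisons were chosen with earlier results of these data known. The T-lineage definition (at least 3 T-lineage UMIs, at least 1 Ptprc UMI and 0 Epcam UMIs), the Aire-high class and the comparisons of Aire-high and Ccl21a-high cycling cells with other cells of those classes were added after the data were seen. Each library was assigned by the genotype field of its labels.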

Additional observations from a re-analysis of the deposited data

Results flagged for a closer look

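Some genes had ratios of opposite sign in the libraries, and those differences were not tested. S100a8 was higher in cycling cells with Aire than without it in the library labelled fl/fl (log2 3.14) and lower in the library labelled +/fl (−1.17). Dynlrb2, a dynein light chain of cilia, was lower with Aire in the library labelled fl/fl (−1.28) and higher in the library labelled +/fl (2.31). Ltf was higher in Ccl21a-high than in Ccl21a-low cycling cells labelled fl/fl (4.21) and lower in those labelled +/fl (−8.61), where its 275 UMIs lay in 1 cell. Set against other epithelial cells, cycling cells had a log2 ratio of Ltf of −2.50 labelled fl/fl and 2.52 labelled +/fl. Tff3 in cycling Aire-high over other Aire-high cells had −4.77 labelled fl/fl and 1.32 labelled +/fl.

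Cells outside the members also met the 5-gene rule. Of barcodes that failed the cell filter, 2.42% labelled fl/fl and 3.05% labelled +/fl met the whole member rule. Of passing cells past the 5-gene rule, 9.42% of 223 labelled fl/fl and 22.3% of 166 labelled +/fl had at least 1 Ptprc UMI, and 4.93% and 5.42% had 0 Epcam UMIs.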

How the results depend on the processing

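Of the main shares, counts and list medians, 227 values under the alternatives stayed within the limits set for them and 37 moved. The limits were the 95% interval of a share or ratio, 1.5 times for a count, and 0.58 on the log2 scale for a list median. Of the values of single genes, 312 stayed within that limit, 51 moved and 5 changed sign from a ratio of at least 2-fold, and the causes were not tested.

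The share of cycling cells was 2.20% labelled fl/fl and 2.30% labelled +/fl from 10 rule UMIs per 10000, 2.45% and 1.85% without cells carrying UMIs of other lineages, and 2.80% labelled +/fl when cells were thinned before the rule. The share with Aire was 41.6% and 26.8% after thinning to 2000 UMIs, and 79.5% and 71.7% after thinning to 10000. With no thinning it was 84.8% and 77.3%, and for at least 2 UMIs 42.0% and 23.6%. Without cells of other-lineage UMIs it was 47.5% and 30.4%, and that alternative left out 67.5% and 79.7% of cycling cells. The Ccl21a-high share was 47.7% labelled +/fl from 10 per 10000, and 10.7% and 21.1% from 50.

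The S-phase to mitotic ratio was 2.35 and 1.99 from 4 rule UMIs per 10000, 1.89 and 1.44 from 10, 2.08 and 2.10 without cells of other-lineage UMIs, 1.97 and 1.67 with thinning before the rule, and 1.92 labelled +/fl at no more than 10% mitochondrial UMIs. With no CPM minimum 1030 genes were at least 2-fold higher labelled fl/fl and 443 lower, and with at least 100 CPM 32 and 22. In the cells without Aire the Aire-stage median was −0.029. For cells with Aire over those without, the immature median labelled fl/fl was −1.08 by per-cell means and −0.47 with thinned classes, and the interferon median −0.45 with thinned classes, an alternative chosen after seeing the data. For Ccl21a-high cells from 50 per 10000 over low cells labelled fl/fl, the Aire-stage median was −1.96 and the interferon median 2.45.

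Changes of sign between the libraries, from at least 2-fold, were in Isg15 (0.057 without cells of other-lineage UMIs), Ltf (3.84 in cells with Aire, and 2.96 without the top cell of each library, chosen after seeing the data), Akap12 (1.46 in cells without Aire) and Fxyd2 (0.18 in cells without Aire). Values under 2-fold that changed sign are not in that count. Among single genes they were Ccl21a (0.31 in cells without Aire) and Ikzf1 (0.11 from 10 rule UMIs per 10000, 0.006 without the highest doublet scores, 0.47 without cells of other-lineage UMIs and 0.16 by per-cell means). Among medians they were, in cells without Aire, the S-phase list (−0.12), the Aire-stage list (−0.029), the immature list (0.066) and the interferon list (0.037). The mitotic median (0.24) also changed sign without cells of other-lineage UMIs, and the median of all genes (0.0059) with no CPM minimum. For 16 pairs of a gene and a setting no ratio was given, since both libraries held at most 3 UMIs. No paired analysis was possible because there was 1 library per genotype. Depth limits the shares of cells with a UMI, and the number of libraries limits every comparison of genotypes.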
